A study of Rattus with 6 samples.

Results

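Genes that make, break down and sense cyclic AMP were examined in rat bone marrow mesenchymal stem cells (BMSC), stromal precursors of bone, cartilage and fat cells. The set held every gene whose symbol began with Pde or Adcy followed by a digit, the 6 genes of cAMP-dependent protein kinase (kinase A) subunits Prkaca, Prkacb, Prkar1a, Prkar1b, Prkar2a and Prkar2b, and the transcription factor genes Creb1 and Crem. These were 44 of the 30211 genes in the deposited table. Cells labelled wild type were cultured for 4 days with 100 uM dexamethasone, a synthetic glucocorticoid (3 libraries), or without it (3 control libraries). The age, sex and strain of the animals, any vehicle in the control cultures, and whether replicates were separate cultures or animals are not stated in the labels used here. The p-values therefore measure only the spread between these libraries, which may be technical. Groups follow the sample titles, since the treatment tag reads DEX for all 6 samples.

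Cyclic AMP is an intracellular messenger made from ATP by adenylyl cyclases, most of which sit in the plasma membrane and are switched on or off by G proteins. Phosphodiesterases end the signal by hydrolysing cAMP, cGMP or both. Rising cAMP binds the regulatory subunits of kinase A and frees its catalytic subunits, which phosphorylate CREB and related factors at genes with cAMP response elements. In marrow stroma this pathway is known for carrying the signals of parathyroid hormone and prostaglandin E2.

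Library totals ranged from 34835072 to 41676315 counts. Of 13 stromal markers, 12 were in the table and all 12 passed the filter on low counts, with a summed level of 3938 to 3970 CPM (counts relative to the TMM-scaled library size) in dexamethasone libraries and 5686 to 5734 CPM in control libraries. Of these 12, 4 rose (33.3%), 7 fell (58.3%) and 1 did not pass, where 32.3% of all tested genes rose and 31.7% fell. The largest fall was that of Prrx1, which averaged 75.6 ± 2.51 CPM with dexamethasone and 727 ± 19.2 CPM without, followed by Pdgfrb with 137 ± 7.94 CPM and 616 ± 11.8 CPM (SD, n = 3 each). Pdgfra was higher, at 965 ± 20.2 CPM with dexamethasone and 598 ± 2.59 CPM without. The 9 macrophage markers summed to 8.65 to 9.41 CPM with dexamethasone and 11.4 to 11.9 CPM in controls. Most of that sum was Cd14 (mean 7.65 and 7.27 CPM), which was not called. Of 5 tested macrophage markers, 2 fell (40.0%, against 31.7% of all tested genes) and 3 did not pass. The falls were those of Cd74 (17 counts with dexamethasone, 206 in controls) and Cd68 (60 and 143). Cd74 passed the filter only through its controls. Adgre1 and Cd163 were at 0 in all 6 libraries. Lymphocyte, granulocyte and red cell markers each summed to less than 1 CPM in every library, and endothelial markers to at most 2.10 CPM, with Emcn at 0. All 7 markers of cycling cells rose, and their sum was 2011 to 2034 CPM with dexamethasone against 589 to 607 CPM in controls. The part of this cell cycle difference in the results below was not tested. In bulk RNA, fewer cells that express a gene and less RNA per cell cannot be told apart.

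More of the measured cAMP genes were lower with dexamethasone than were higher. Of the 44 members, 28 passed the filter and were tested: 6 rose, 17 fell and 5 did not pass. Genes were called at a Benjamini-Hochberg adjusted p below 0.05, taken over all 14111 tested genes, from the quasi-likelihood test of edgeR. The share of members called was 82.1%, where 64.0% of all tested genes were called, 32.3% up and 31.7% down. The median log2 fold change (dexamethasone over control) was -0.44 over the tested members and -0.00019 over all tested genes. Changes of at least 1.5-fold were called for 15 members (53.6%), 1 up and 14 down, against 27.4% of all tested genes. The values of the dexamethasone and control libraries did not overlap for 24 members (85.7%), against 66.9% of all tested genes.

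The smaller calls rest on how close these replicates are. With the coefficient of variation between replicates set to 0.2 for every gene, 15 members passed (1 up, 14 down) against 26.2% of all tested genes. The calls of Adcy6, Pde4b, Pde8a, Prkaca, Prkar1a, Prkar2a, Creb1 and Pde6d were lost there, with edgeR adjusted p of 0.104 (Prkar2a) to 0.798 (Pde8a). Tested against a fold change of 1.5 instead of no change, 10 members passed (1 up, 9 down) against 20.0% of all tested genes. Those 8 genes then had an adjusted p of 1, and the calls of Adcy3, Adcy5, Pde4c, Pde3b and Prkacb were lost as well (edgeR adjusted p of 0.0696 to 0.675).

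**Figure D1:**
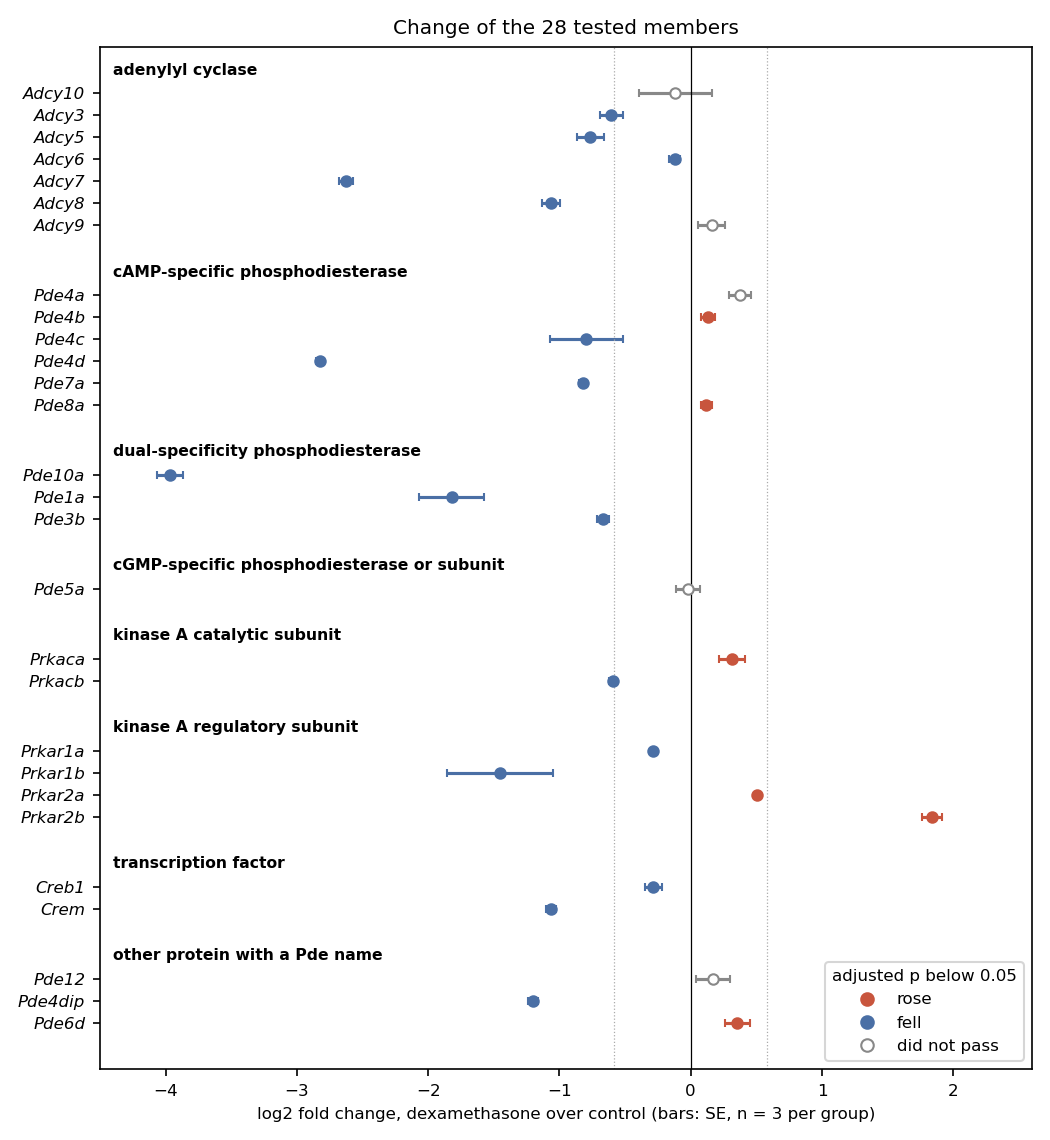
Log2 fold change of each tested member, dexamethasone over control, ordered by role. Points are estimates from edgeR, bars are the standard error from 3 libraries per group, open points did not pass an adjusted p of 0.05, and dotted lines mark a 1.5-fold change. Pde10a (-3.97), Pde4d (-2.82) and Adcy7 (-2.62) lie farthest to the left, and Prkar2b (1.84) farthest to the right.

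**Figure D2:**
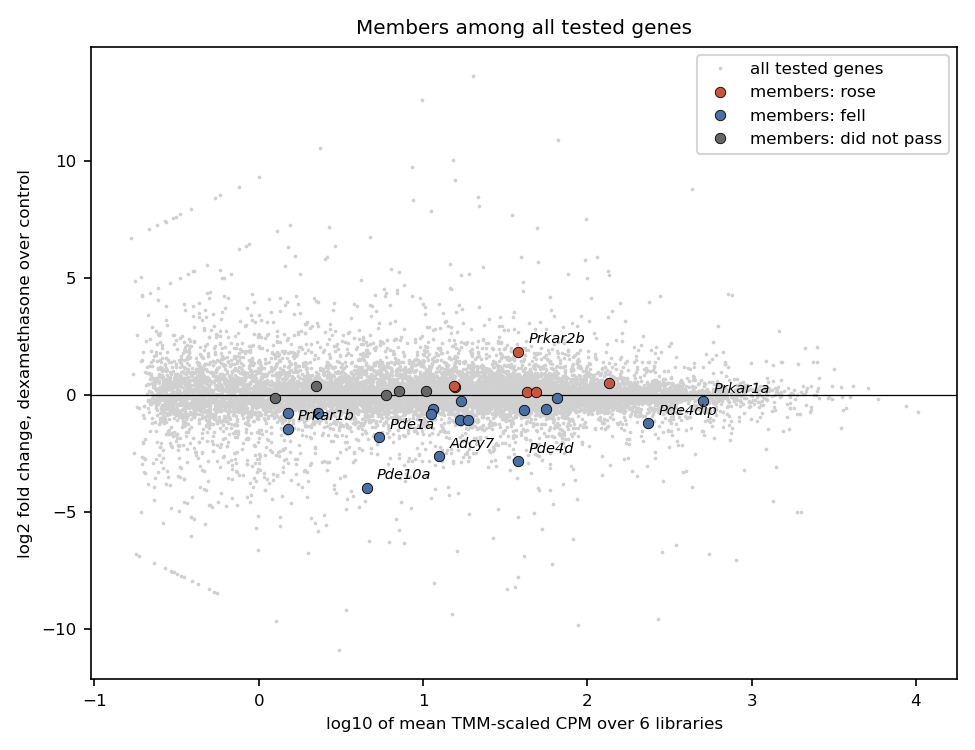
Log2 fold change against the mean level over 6 libraries (TMM-scaled CPM, log10 axis) for all 14111 tested genes in grey, with the 28 tested members coloured by call. Most members lie within the cloud of all genes, and Prkar2b is the only tested member that rose by more than 1.5-fold.

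Of the 10 adenylyl cyclase genes, 7 were tested: 5 fell (71.4%, against 31.7% of all tested genes), 0 rose and 2 did not pass. At an unadjusted p below 0.05 in edgeR, 0 rose and 5 fell, and the counts called by DESeq2 and by limma-voom were also 0 and 5. Adcy7, a membrane cyclase best known from blood and immune cells (chromosome 19, 19704859 to 19727081), had 3.48, 3.60 and 3.4 CPM in dexamethasone libraries and 21.7, 20.3 and 22.6 CPM in controls. The groups were far apart, and the log2 fold change was -2.62 ± 0.051 (SE), 6.17-fold lower (edgeR adjusted p = 7.45e-28). Adcy8, which is stimulated by calcium and calmodulin (chromosome 7, 105353913 to 105592804), had 11.8, 10.3 and 10.3 CPM with dexamethasone, against 22.0, 22.5 and 23.4 CPM. All 3 dexamethasone libraries were below all 3 controls, and the log2 fold change was -1.06 ± 0.070 (edgeR adjusted p = 7.36e-17).

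Smaller falls were measured for Adcy5 and Adcy3. Adcy5, which is inhibited by calcium and by Gi proteins (chromosome 11, 68695839 to 68842320), was rare, at 1.82, 1.82 and 1.48 CPM with dexamethasone and 2.88, 3.02 and 2.80 CPM without. Its log2 fold change was -0.76 ± 0.10 (edgeR adjusted p = 2.55e-04). Adcy3, known from olfactory neurons and primary cilia (chromosome 6, 28571351 to 28650148), had 9.83, 8.14 and 9.43 CPM with dexamethasone and 13.5, 13.8 and 14.5 CPM in controls, a log2 fold change of -0.61 ± 0.087 (edgeR adjusted p = 4.33e-08). The groups of both genes were separate in all 6 libraries. Exons of Adcy3 share 334 bases (5.87% of its exon length) with Cenpo on the opposite strand, which was higher with dexamethasone (8.74 CPM against 4.91 CPM in controls, log2 0.83), and whether the counts used strand is not stated in the labels used here.

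Adcy6, another cyclase inhibited by calcium and Gi, was the most abundant cyclase per length of exon and changed least among those called. It had 64.7, 61.0 and 61.4 CPM in dexamethasone libraries and 70.4, 64.8 and 68.3 CPM in controls, so the highest dexamethasone library lay just under the lowest control. The log2 fold change was -0.12 ± 0.044 (edgeR adjusted p = 0.00888, and 0.0029 to 1 over the alternatives). That call was lost with library size alone (adjusted p = 0.074), without dexamethasone replicate 2 (0.0538) and without control replicate 1 (0.0614). Adcy9, a cyclase with little response to forskolin, averaged 11.1 ± 1.09 CPM with dexamethasone and 9.88 ± 0.73 CPM without (SD, n = 3 each). It did not pass (edgeR adjusted p = 0.115, and 0.0352 to 1 over the alternatives), but was called upward without dexamethasone replicate 3 (adjusted p = 0.0352). Adcy10, the soluble cyclase activated by bicarbonate, averaged 1.21 ± 0.37 CPM with dexamethasone and 1.31 ± 0.092 CPM in controls (SD, n = 3 each) and did not pass (edgeR adjusted p = 0.71).

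The phosphodiesterases specific for cAMP are the PDE4, PDE7 and PDE8 families. Of their 8 genes, 6 were tested, with 2 rises, 3 falls and 1 that did not pass. The share of rises was near the 32.3% of all tested genes, and the share of falls was above their 31.7%. Pde4d, whose shorter transcripts are known to be inducible by cAMP (chromosome 2, 40554146 to 41464264), fell most. Its level was 9.36, 9.30 and 9.48 CPM in dexamethasone libraries and 67.2, 68.1 and 64.1 CPM in controls. That is 7.08-fold lower, a log2 fold change of -2.82 ± 0.027 (edgeR adjusted p = 3.27e-37). The counts are per gene, so long and short forms of PDE4D could not be told apart.

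The other PDE4 genes differed less between the groups, and Pde4b was called in the opposite direction. Pde4b, the form best known from inflammatory cells (chromosome 5, 121952977 to 122136814), had 44.6, 44.3 and 46.3 CPM with dexamethasone and 42.5, 42.6 and 38.3 CPM in controls. All dexamethasone libraries were above all controls, by a log2 fold change of 0.13 ± 0.054 (edgeR adjusted p = 0.017, and 0.0023 to 1 over the alternatives). The call of Pde4b was lost without dexamethasone replicate 3 (adjusted p = 0.07) and without control replicate 3 (0.166). Its exons share 249 bases (7.55%) with AABR07049466.1 on the same strand, a gene with 364 counts in all 6 libraries together.

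Pde4a and Pde4c were rare. Pde4a had 2.58, 2.64 and 2.34 CPM with dexamethasone and 1.76, 2.0 and 2.05 CPM without, groups that did not overlap, but it did not pass (log2 0.38 ± 0.084, edgeR adjusted p = 0.0647, and 0.0418 to 1 over the alternatives). With library size alone it was called upward (adjusted p = 0.0418). Pde4c (chromosome 16, 20442609 to 20466351) had 1.28, 0.766 and 1.23 CPM with dexamethasone, against 1.66, 2.38 and 1.70 CPM, and fell by 0.79 on the log2 scale, with an SE of 0.28 (edgeR adjusted p = 0.00328). Within each of these groups of 3, the lowest and highest Pde4c libraries were further apart than for Pde4a.

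The ratio of Pde4b to Pde4d, taken per length of exon, turned over between the groups. It was 4.35, 4.34 and 4.45 in dexamethasone libraries and 0.578, 0.571 and 0.545 in controls. Within the PDE4 family, Pde4b held 75.5% ± 0.47 of the level per length with dexamethasone and 34.8% ± 0.76 in controls, and Pde4d 17.2% ± 0.16 and 61.5% ± 0.61 (SD, n = 3 each). The summed PDE4 level was 18.1 ± 0.34 CPM per kb with dexamethasone and 35.9 ± 1.47 CPM per kb without.

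PDE7 and PDE8 enzymes have high affinity for cAMP and are not blocked by the PDE4 inhibitor rolipram. Pde7a (chromosome 2, 104045811 to 104134101) had 8.10, 8.31 and 7.93 CPM with dexamethasone and 14.7, 14.3 and 14.0 CPM in controls, a log2 fold change of -0.82 ± 0.028 (edgeR adjusted p = 1.07e-11). Pde8a (chromosome 1, 143036218 to 143159433) had 49.7, 53.1 and 50.6 CPM with dexamethasone and 47.6, 48.2 and 45.2 CPM without, a small rise of 0.12 ± 0.041 on the log2 scale (edgeR adjusted p = 0.0185, and 0.0021 to 1 over the alternatives). The groups of both genes were separate, but those of Pde8a only narrowly. Its call was lost without dexamethasone replicate 2 (adjusted p = 0.09) and without control replicate 3 (0.104).

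Phosphodiesterases that hydrolyse both cAMP and cGMP all fell where they were measurable. Of 8 genes of this kind, only 3 were tested and all 3 fell, where 31.7% of all tested genes fell. With all 3 called down, 0 rises in edgeR at an unadjusted p below 0.05 followed by necessity. DESeq2 and limma-voom, run on the same 6 libraries, also called 0 up, which is no separate support. Pde10a, an enzyme best known from striatal neurons (chromosome 1, 52360296 to 52544450), had 0.592, 0.567 and 0.468 CPM in dexamethasone libraries (64 counts in all) and 8.35, 8.84 and 8.40 CPM in controls (1007 counts). It was 15.6-fold lower, a log2 fold change of -3.97 ± 0.099, the lowest of all tested members (edgeR adjusted p = 1.15e-24).

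Pde1a, which is activated by calcium and calmodulin (chromosome 3, 66803247 to 66885094), had 2.11, 1.79 and 3.20 CPM with dexamethasone and 8.25, 8.89 and 8.12 CPM in controls. Dexamethasone replicate 3 stood above the other two, yet the groups were well separated, with a log2 fold change of -1.82 ± 0.25 (edgeR adjusted p = 9.20e-14). Pde3b, the cGMP-inhibited form through which insulin lowers cAMP in fat cells (chromosome 1, 183892841 to 184078071), had 30.7, 32.5 and 32.8 CPM with dexamethasone and 50.4, 52.9 and 49.1 CPM without. This was a log2 fold change of -0.67 ± 0.043 (edgeR adjusted p = 3.62e-16). Its close relative Pde3a had only 4 counts with dexamethasone and 6 in controls.

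Among genes for cGMP-specific enzymes and their subunits, Pde5a, the target of sildenafil, was the 1 of 7 that could be tested. Pde5a had 5.92, 5.56 and 6.18 CPM with dexamethasone and 6.46, 5.37 and 6.12 CPM in controls, and the groups overlapped. It did not pass (log2 -0.02 ± 0.090, edgeR adjusted p = 0.887), and at an unadjusted p below 0.05, in DESeq2 and in limma-voom the count called in this family was also 0. Photoreceptor Pde6b was close to the detection limit: it had 35 counts (16, 4 and 15) with dexamethasone and 1 count (0, 0 and 1) in controls. Taken as read pairs, that is a ratio of 18.5 with a 95% exact binomial interval of 2.92 to 770, which covers counting error only. Pde6b did not pass the filter, and without it was called upward (edgeR adjusted p = 1.05e-04).

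The 16 members that were not tested had few or no reads. Adcy1, Pde7b, Pde11a and Pde6h had 0 counts in all 6 libraries, which allows a level of up to 0.170 CPM in the least deep library at a floor of 6 counts. The other 12, Adcy2, Adcy4, Pde1b, Pde1c, Pde2a, Pde3a, Pde6a, Pde6b, Pde6c, Pde6g, Pde8b and Pde9a, had 1 to 36 counts each over the 6 libraries. Among them Adcy4 had 2 counts with dexamethasone and 17 without, and Pde2a had 8 and 16.

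The make-up of the cyclases and phosphodiesterases also differed between the groups. Levels were compared between genes as TMM-scaled CPM per kb of exon. The summed phosphodiesterase level was 50.2, 51.3 and 52.0 CPM per kb in dexamethasone libraries and 79.6, 81.1 and 75.8 CPM per kb in controls. Pde4d held 6.10% ± 0.090 of that sum with dexamethasone and 28% ± 0.10 without (SD, n = 3 each), and its own difference made up 68.6% of the difference in the sum of the group means. Pde8a held 39.0% ± 1.25 and 23.3% ± 0.067, and Pde4b 26.7% ± 0.47 and 15.8% ± 0.46.

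In dexamethasone libraries the order of levels was Pde8a (19.97 CPM per kb), Pde4b (13.7), Pde3b (7.29), Pde4d (3.12) and Pde7a (2.50). In controls it was Pde4d (22.1 CPM per kb), Pde8a (18.4), Pde4b (12.5), Pde3b (11.6) and Pde7a (4.42), followed closely by Pde1a (4.34). Pde7a and Pde1a in controls did not differ beyond their SDs of 0.11 and 0.21 CPM per kb, and Pde4b and Pde3b differed by less than the sum of their SDs of 0.75 and 0.44 CPM per kb.

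For the cyclases the sum was 19.1, 18.1 and 17.7 CPM per kb with dexamethasone and 27.1, 26.4 and 27.6 CPM per kb in controls. Adcy6 made up 57.2% ± 0.94 with dexamethasone and 42.1% ± 1.30 without, and Adcy7 4.59% ± 0.21 and 19.1% ± 0.58. The difference in Adcy7 was 49.6% of the difference in the cyclase sum. After Adcy6 (10.5 CPM per kb), the next in dexamethasone libraries were Adcy9 (2.43 ± 0.24) and Adcy8 (2.36 ± 0.19), which did not differ beyond their SD. In controls the next after Adcy6 (11.4 CPM per kb) were Adcy7 (5.17 ± 0.28) and Adcy8 (4.93 ± 0.16), which differed by less than the SD of Adcy7 but by more than that of Adcy8.

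**Figure D3:**
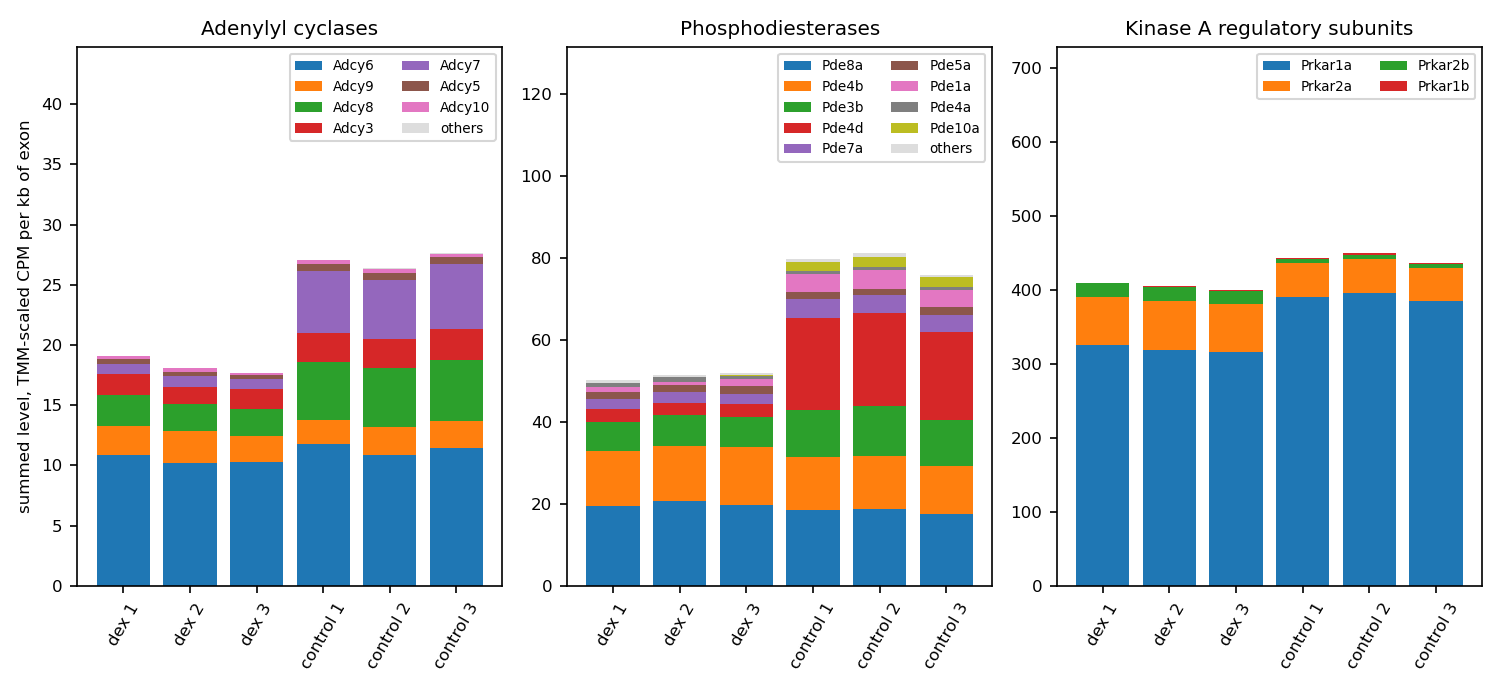
Stacked bars of the level of each gene per length of exon (TMM-scaled CPM per kb) in each dexamethasone and control library, for cyclases, cyclic nucleotide phosphodiesterases and kinase A regulatory subunits. The phosphodiesterase bars are 50.2 to 52.0 high with dexamethasone and 75.8 to 81.1 high in controls, and the Pde4d segment is the part that differs most.

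All 6 kinase A subunit genes were called, 3 up and 3 down. Of all tested genes, 64.0% were called, 32.3% up and 31.7% down. With the coefficient of variation set to 0.2, 2 regulatory genes (1 up, 1 down) and 1 catalytic gene (down) passed, against 26.2% of all tested genes. Tested against a fold of 1.5, 2 regulatory genes (1 up, 1 down) and 0 catalytic genes passed, against 20.0% of all tested genes. Prkar2b, which encodes the RII beta regulatory subunit known from fat and brain (chromosome 6, 51265515 to 51356383), had 60.3, 61.9 and 56.3 CPM in dexamethasone libraries and 17.1, 17.6 and 15.1 CPM in controls. It was 3.58-fold higher, a log2 fold change of 1.84 ± 0.077 (edgeR adjusted p = 4.39e-30), the highest of all tested members. Prkar2a, the RII alpha subunit found in most cells (chromosome 8, 117486083 to 117546370), had 158, 160 and 158 CPM with dexamethasone and 112, 112 and 110 CPM without. The libraries of each group were nearly identical, and the log2 fold change was 0.51 ± 0.0089 (edgeR adjusted p = 1.44e-18).

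Type I subunits moved the other way. Prkar1a, the RI alpha subunit and the most abundant member per length (chromosome 10, 97940705 to 97957336), had 467, 458 and 453 CPM with dexamethasone and 560, 568 and 552 CPM in controls. Its fall was small, with a log2 fold change of -0.29 ± 0.017 (edgeR adjusted p = 4.62e-13). Prkar1b, the RI beta subunit known mainly from neurons (chromosome 12, 17614632 to 17712373), had 0.426, 0.936 and 1.06 CPM with dexamethasone and 1.79, 2.48 and 2.30 CPM without, a log2 fold change of -1.45 ± 0.41 (edgeR adjusted p = 4.21e-06). Both groups of Prkar1b were spread out but did not overlap, on 94 and 259 counts in all.

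The balance of type II to type I regulatory subunits, per length of exon, was 0.258, 0.266 and 0.260 in dexamethasone libraries and 0.132, 0.130 and 0.130 in controls. Prkar1a still held 79.1% ± 0.32 of the regulatory level with dexamethasone, against 88.0% ± 0.0026 without (SD, n = 3 each). Prkar2b accounted for 4.49% ± 0.18 with dexamethasone and 1.14% ± 0.074 in controls.

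The catalytic subunits differed in direction. Prkacb, the C beta subunit (chromosome 2, 252605307 to 252691886), had 45.1, 44.7 and 44.5 CPM with dexamethasone and 66.3, 70.1 and 66.5 CPM in controls, a log2 fold change of -0.60 ± 0.027 (edgeR adjusted p = 1.13e-16). Prkaca, the C alpha subunit (chromosome 19, 25095089 to 25118860), had 17.2, 16.7 and 18.5 CPM with dexamethasone and 15.5, 12.5 and 14.2 CPM without, a log2 fold change of 0.32 ± 0.099 (edgeR adjusted p = 4.41e-04). Neither gene had overlapping groups. The summed regulatory level over the summed catalytic level was 8.55, 8.56 and 8.32 with dexamethasone and 6.72, 6.60 and 6.66 in controls, where both sums are CPM per kb.

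Both transcription factor genes fell, as did 31.7% of all tested genes. Crem, whose locus yields activators and, from an internal promoter, the cAMP-inducible repressor ICER (chromosome 17, 57031766 to 57090888), had 12.1, 12.4 and 11.9 CPM with dexamethasone and 26.5, 24.6 and 24.9 CPM in controls. This was 2.09-fold lower, a log2 fold change of -1.06 ± 0.038 (edgeR adjusted p = 5.13e-18), and the counts do not separate activator from repressor forms. Creb1, the main kinase A substrate at cAMP response elements (chromosome 9, 71230108 to 71293435), had 15.3, 16.2 and 14.4 CPM with dexamethasone and 18.6, 19.7 and 17.7 CPM without. Its fall was smaller, at -0.28 ± 0.066 on the log2 scale (edgeR adjusted p = 6.44e-04).

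**Figure D4:**
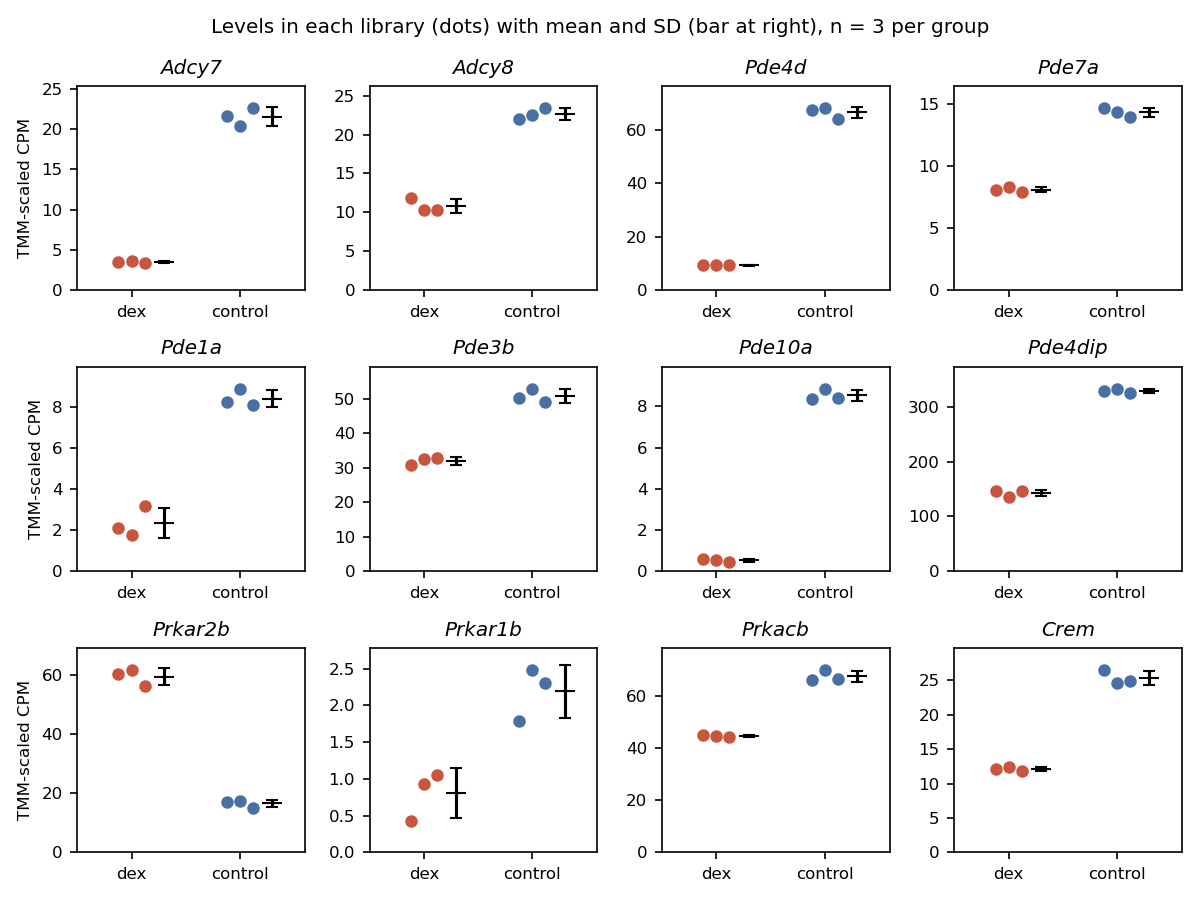
Level of 12 members in each library (TMM-scaled CPM, linear axes from 0), dexamethasone left of control, with the mean and SD of 3 libraries beside the points. Prkar2b is higher in all 3 dexamethasone libraries (56.3 to 61.9 CPM against 15.1 to 17.6 CPM), and the other 11 genes are lower in all 3.

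A further 3 symbols match the naming rule although their proteins are not cyclic nucleotide phosphodiesterases. Pde4dip encodes myomegalin, a scaffold of the centrosome and Golgi that binds PDE4D (chromosome 2, 199867972 to 200003443). It had 146, 136 and 146 CPM with dexamethasone and 328, 332 and 324 CPM in controls, 2.30-fold lower with a log2 fold change of -1.20 ± 0.036 (edgeR adjusted p = 5.87e-33). Pde6d, a chaperone that carries prenylated proteins (chromosome 9, 93562095 to 93607087), had 15.4, 18.3 and 18.2 CPM with dexamethasone and 14.0, 12.4 and 14.1 CPM without, a log2 fold change of 0.36 ± 0.099 (edgeR adjusted p = 1.09e-04). Its groups did not overlap, although dexamethasone replicate 1 lay close to the controls. Pde12, a mitochondrial enzyme that trims poly(A) tails, averaged 7.53 ± 0.46 CPM with dexamethasone and 6.68 ± 0.97 CPM in controls (SD, n = 3 each). It did not pass (edgeR adjusted p = 0.176, and 0.0338 to 1 over the alternatives), but was called upward without control replicate 2 (adjusted p = 0.0338).

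The rest of the pathway was read from 7 lists of 135 genes in all, of which 96 were tested: 33 rose, 44 fell and 19 did not pass. The share called was 80.2%, with 34.4% up and 45.8% down, where 64.0% of all tested genes were called, 32.3% up and 31.7% down. The share of rises was thus near that of all genes. Among 14 tested receptors coupled to adenylyl cyclase, 3 rose (21.4%) and 9 fell (64.3%), with a median log2 fold change of -1.11. Calcrl, the receptor for adrenomedullin and calcitonin gene-related peptide, averaged 36.9 ± 0.755 CPM with dexamethasone and 75.4 ± 2.79 CPM in controls (SD, n = 3 each). Its partner Ramp3 averaged 26.5 ± 1.39 CPM and 67.0 ± 4.65 CPM. Both fell (log2 -1.03 and -1.34, edgeR adjusted p at most 8.59e-25). Lpar1, a lysophosphatidic acid receptor that couples to Gi and so lowers cAMP, rose by 1.02. S1pr1, which also couples to Gi and was named after its value was seen, fell by 1.21 (edgeR adjusted p = 2.73e-08). The counts of this list therefore have no single direction for cAMP. Rises named after their values were seen were those of Adora2a (log2 0.43) and Ramp2 (log2 1.2, below 1 CPM). Ramp2 passed the filter only through its dexamethasone libraries. The call of Adora2a was lost with the coefficient of variation at 0.2 (edgeR adjusted p = 0.224). That of Ramp2 was lost in DESeq2 (adjusted p = 0.0607), and in edgeR without dexamethasone replicate 3 (0.212), control replicate 2 (0.142) or control replicate 3 (0.0698). Against a fold of 1.5 neither passed (adjusted p of 1 and 0.16). Receptors for parathyroid hormone and prostaglandin E2, also named afterwards, had few reads. Pth1r (10 counts with dexamethasone, 2 in controls) and Ptger3 (6 and 0) were not tested. Ptger2 fell, on 23 and 191 counts (edgeR adjusted p = 2.95e-10), but passed the filter only through its controls. Ptger4 was not called, on 37 and 45 counts.

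Of 21 tested G protein genes and regulators, 12 (57.1%) were called up and 6 (28.6%) down, against 32.3% and 31.7% of all tested genes, and the median log2 fold change was 0.32. Gnai1, an inhibitory alpha subunit, averaged 149 ± 4.39 CPM with dexamethasone and 59.9 ± 1.35 CPM in controls, and Gnai3, another, 193 ± 4.28 CPM and 131 ± 1.77 CPM (SD, n = 3 each). These were log2 fold changes of 1.32 and 0.56 (edgeR adjusted p at most 2.54e-20), although the call of Gnai3 was lost at a coefficient of variation of 0.2 (adjusted p = 0.0649) and in the test against 1.5-fold (adjusted p = 1). Gnb5, a beta subunit that pairs with RGS proteins, fell by 1.06 on the log2 scale. Gnas, the stimulatory alpha subunit, named after its value was seen, fell by 0.23, a call lost at a coefficient of variation of 0.2 (edgeR adjusted p = 0.582) and against 1.5-fold (adjusted p = 1). At a coefficient of variation of 0.2, 5 G protein genes (23.8%) passed, 4 up and 1 down, a share near the 26.2% of all tested genes.

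Kinase A anchors went both ways. All 14 tested were called, 6 up (42.9%) and 8 down (57.1%), against 64.0% of all tested genes in either direction, and the median log2 fold change was -0.13. Akap12, the anchor also called gravin, averaged 3391 ± 35.9 CPM with dexamethasone and 842 ± 26.0 CPM in controls (SD, n = 3 each), a log2 fold change of 2.01 (edgeR adjusted p = 6.17e-45). Akap2 and Ezr, which encodes ezrin, rose by 0.79 and 0.65. With the coefficient of variation set to 0.2, 4 anchors rose and 1 fell, 35.7% of those tested against 26.2% of all genes.

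Other cAMP effectors and kinase A inhibitors included 8 tested genes, with 3 rises, 0 falls and 5 that did not pass in edgeR. The share called was 37.5%, below the 64.0% of all tested genes, and the share of rises was near the 32.3% of all genes. The number that fell was also 0 at an unadjusted p below 0.05, in DESeq2 and in limma-voom. Rapgef4, which encodes the cAMP sensor EPAC2, averaged 15.4 ± 0.32 CPM with dexamethasone and 3.77 ± 0.36 CPM in controls (SD, n = 3 each), a log2 fold change of 2.02 (edgeR adjusted p = 2.09e-22). Pkia, a kinase A inhibitor, and Abcc4, a pump that exports cAMP, rose by 0.81 and 0.27. In the test against 1.5-fold, Pkia was not called (edgeR adjusted p = 0.138) and neither was Abcc4 (adjusted p = 1), which was also lost at a coefficient of variation of 0.2 (adjusted p = 0.485).

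Of 17 tested genes with cAMP-responsive promoters, 11 fell (64.7%), 3 rose (17.6%) and 3 did not pass. Over all tested genes, 31.7% fell and 32.3% rose. The median log2 change of the list was -0.98. Nr4a1 and Nr4a2, orphan nuclear receptors induced within hours of a cAMP signal, averaged 12.6 ± 0.85 and 7.65 ± 0.80 CPM with dexamethasone and 74.0 ± 4.26 and 166 ± 7.68 CPM in controls (SD, n = 3 each). Their log2 fold changes were -2.56 and -4.44, and Ptgs2, which encodes the cyclooxygenase that feeds prostaglandin E2 synthesis, averaged 12.1 ± 1.43 CPM with dexamethasone and 1595 ± 12.3 CPM in controls, a log2 fold change of -7.04 (edgeR adjusted p at most 1.21e-35 for these 3). Rises were called for 3 genes of the list, singled out after seeing the values, Per1 (log2 1.63), Dusp1 (1.11) and Rgs2 (4.26). Per1 and Dusp1 are also known targets of the glucocorticoid receptor, and many genes of this list, among those that fell as well, answer to other signals. The part of each signal in these rises and falls was not tested. Fos, Fosb and Egr1 did not pass (log2 0.17, 0.06 and -0.01).

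The list of CREB relatives and coactivators also held Sik1, Sik2, Sik3 and Ppp1r1b, which are neither. It gave 4 rises (26.7%) and 8 falls (53.3%) among 15 tested genes, against 32.3% and 31.7% of all tested genes. The median log2 fold change was -0.19. At a coefficient of variation of 0.2 only 2 of the 15 passed (13.3%), below the 26.2% of all genes. Sik1, a kinase that is itself induced by CREB and restrains its coactivators, averaged 1.15 ± 0.20 CPM with dexamethasone and 4.56 ± 0.79 CPM in controls (SD, n = 3 each), a log2 fold change of -1.98 (edgeR adjusted p = 6.49e-13). Sik3 and the coactivator gene Crtc1 fell by 0.50 and 0.46, calls lost at a coefficient of variation of 0.2 (edgeR adjusted p = 0.113 and 0.157) and against 1.5-fold (adjusted p = 1 for both). The rises, picked out after seeing the values, were Creb5 (log2 0.40), Crtc3 (0.61), Sik2 (0.14) and Ppp1r1b (2.05, below 1 CPM). Ppp1r1b passed the filter only through its dexamethasone libraries, so its calls are no separate support for a rise. Of these rises only that of Ppp1r1b was called at a coefficient of variation of 0.2 and against 1.5-fold. The others had edgeR adjusted p of 0.0565 (Crtc3) to 0.765 (Sik2) at that coefficient of variation, and Sik2 also lost its call without control replicate 3 (adjusted p = 0.0581).

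Of 20 listed genes of cGMP synthesis and effectors, 19 were in the table and 7 had enough reads to be tested, with 2 rises and 2 falls. The share called was 57.1%, against 64.0% of all tested genes. Npr2, the receptor for C-type natriuretic peptide that makes cGMP, averaged 49.9 ± 0.097 CPM with dexamethasone and 93.0 ± 1.84 CPM in controls (SD, n = 3 each), a log2 fold change of -0.90 (edgeR adjusted p = 1.59e-24). Npr3, which clears these peptides, had 586 counts with dexamethasone and 10 in controls (edgeR adjusted p = 7.51e-19). Npr3 passed the filter only through its dexamethasone libraries, so its call is no separate support for a rise. Nos2, the inducible nitric oxide synthase, had 22 counts with dexamethasone and 20755 in controls, and fell by 9.86 on the log2 scale. It passed the filter only through its controls. Gucy2g, named after its value was seen, passed the filter only through its dexamethasone libraries, and rose by 1.49 at a level below 0.5 CPM. That call was lost without the filter, in DESeq2 and against 1.5-fold (adjusted p of 0.0505, 0.0544 and 0.11), and without dexamethasone replicate 3 (edgeR adjusted p = 0.112), control replicate 2 (0.0639) or control replicate 3 (0.116). Of the soluble guanylyl cyclase subunits that answer to nitric oxide, Gucy1a1 had 0 counts with dexamethasone and 2 in controls, and Gucy1b1 had 20 and 0.

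**Figure D5:**
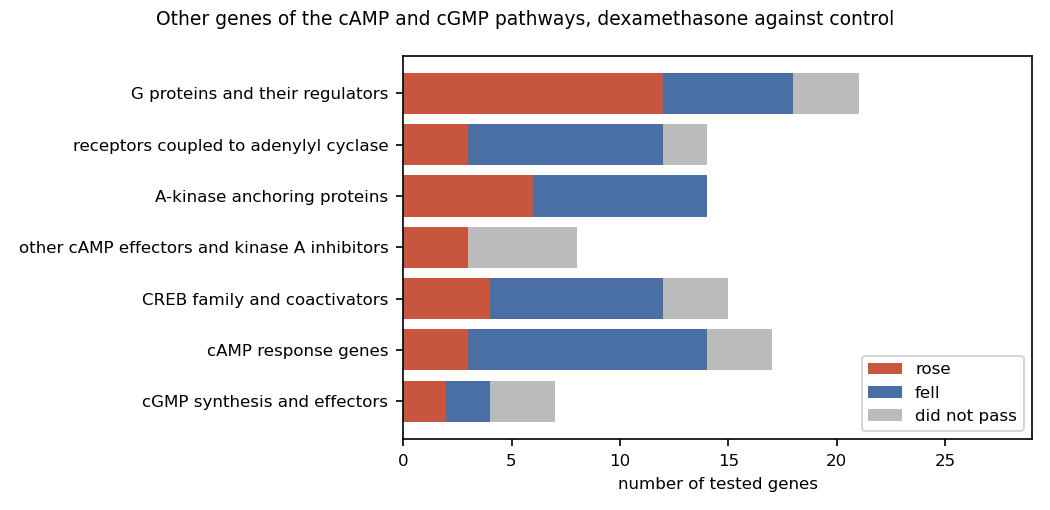
Number of tested genes in each of 7 other lists of the cAMP and cGMP pathways that rose, fell or did not pass (edgeR, adjusted p below 0.05, dexamethasone against control). G proteins had 12 rises and 6 falls, cAMP response genes 3 rises and 11 falls, and receptors 3 rises and 9 falls.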

How the data were processed

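Values were the authors' deposited read counts per gene for 6 libraries in a single table with exon coordinates and lengths, per the file headers. Libraries were made from column-purified RNA with a SMARTER mRNA kit, per the labels' protocols. No source used here gives the aligner, counter or strand setting. The submitters' processing notes name mm10, a mouse build, but all 44 members lay on the chromosome of their namesake in a rat gene table (GRCr8). Coordinates are therefore printed as deposited, and their rat build has no name in the sources used here.

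The filterByExpr filter, given the groups, kept 14111 of 30211 genes. Testing used edgeR 4.0.16 in R 4.3.3, with TMM scaling, the robust quasi-likelihood test, no covariates, and Benjamini-Hochberg adjustment over all tested genes. Standard errors come from log2 CPM (prior count 2) of 3 libraries per group. Levels per kb divide TMM-scaled CPM by the deposited exon length, which need not hold every untranslated region. Of values from 1 to 20 counts, 70.3% were even, against 50.6% of values of 1000 or more, so the floor was set at 6 counts (0.142 to 0.170 CPM by library) and intervals used counts divided by 2, rounded up. Intervals and floors cover counting error only.

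Alternatives were RLE size factors, library size alone, no filter, DESeq2 1.42.0, limma-voom (limma 3.58.1), counts divided by 2, a coefficient of variation of 0.2, a test against a fold of 1.5, a replicate block, and leaving out each library. Values in every library are given for members called with at least 1.5-fold change and for the most abundant other member of each role. Others were added where a result needed them. For each pathway list the 3 called genes with the smallest p are named. Members and lists were chosen with earlier results of these data known. The scripts were tested on simulated data. No sequences are shown.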

Additional observations from a re-analysis of the deposited data

How the results depend on the processing

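No result changed direction with its call under any alternative run. With the coefficient of variation set to 0.2, 1993 of all tested genes rose and 1700 fell, 1 member rose and 14 fell, and 18 genes of the other pathway lists rose and 24 fell. Tested against a fold of 1.5, the counts were 1549 and 1278 for all tested genes, 1 and 9 for members, and 13 and 22 for the lists. Leaving out each library in turn gave 4334 to 4464 rises and 4218 to 4333 falls over all tested genes, 5 to 8 rises and 16 to 17 falls among members, and 30 to 33 rises and 41 to 44 falls in the lists. Under library size alone, 1 member lost its call and 1 gained it. Under RLE size factors, DESeq2, limma-voom, counts divided by 2 and no filter, the calls of all 28 tested members were the same. Pde6b, called upward without the filter, also passed it and was called when dexamethasone replicate 2 or any single control was left out. It passed there only through its dexamethasone libraries, because a smaller group lowers the number of libraries that the filter requires. These calls are therefore no separate support for a rise. Summed levels, shares and ratios of members were also taken under other scalings and without each library, alternatives chosen after seeing the data. They stayed within 1 SD in 72 of 72 values. That count was largely fixed in advance. Shares and ratios within a library do not depend on its scaling. Leaving out 1 library cannot move the mean of its group by 1 SD of that group. The count is therefore no separate support for these values.

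With the replicate block, 4553 of all tested genes rose and 4438 fell, and 6 members rose and 17 fell. Replicate numbers share no stated source, and deviations of same-numbered libraries correlated at 0.0026, -0.0078 and 0.020, so they were not treated as paired. Few reads limit the 16 untested members. From read pairs, the 95% interval of the ratio of dexamethasone to control was 0.0026 to 0.823 for Adcy4 and 2.92 to 770 for Pde6b, both without 1, and 0.103 to 1.63 for Pde2a and 0.138 to 1.65 for Pde6g, both with 1. These intervals cover counting error only. Without the filter Adcy4 was not called (edgeR adjusted p = 0.0634), and its groups overlapped.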
